A study of Mus musculus with 48 samples.

Results

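The 10 genes described here are the MHC class II genes of RAW264.7 cells together with Ciita, their transcriptional coactivator. They were taken by gene symbol from the deposited count table, in which 10 of 49568 rows carried one of the symbols Ciita, Cd74, H2-Aa, H2-Ab1, H2-Eb1, H2-Ea-ps, H2-DMa, H2-DMb1, H2-DMb2 and H2-Oa. RAW264.7 is a macrophage line raised from a BALB/c mouse tumour induced by Abelson leukaemia virus, so all libraries come from 1 line. The cells were kept for 72 h with PBS, with IFN-γ at 5 ng/ml, with 1 of 3 synthetic peptides at 100 µg/ml, or with a peptide and IFN-γ together. Each peptide copies the same stretch of the human HLA-DR β chain from a different allele. LE stands for the allele linked to risk of lupus, SE for the one linked to risk of rheumatoid arthritis and PE for the one linked to protection. The 8 groups were labelled PBS, LE, SE, PE, IFNy, LE+IFNy, SE+IFNy and PE+IFNy, and messenger RNA was sequenced from 6 libraries of each.

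Replicates 1 to 3 of each group carry single letters in their labels and replicates 4 to 6 carry the letters HLA and a number. The 24 letter-labelled libraries held 16498562 to 26929356 counts and the 24 HLA-labelled libraries 14115928 to 42574154 counts. In the HLA-labelled set the class II genes went against many of the labels, as given at the end, so the comparisons were made in the letter-labelled set with n = 3 per group. The study calls its replicates biological and says they come from independent experiments, but the labels do not tie a library to a culture, so the p-values measure the spread between these libraries. The line showed its macrophage identity in the letter-labelled set. Of 8 macrophage markers 7 had more than 10 counts in every library, the exception being Mertk with 0 to 11 counts. The summed levels of 6 B cell markers and of 5 T cell markers stayed at or below 0.633 CPM and 0.0819 CPM respectively, where CPM is the count scaled to 1000000 total counts in the library. The 8 macrophage markers summed to 9258 to 11749 CPM without IFN-γ and to less with it, 6463 to 8891 CPM. Lyz2 had the most counts of them, 69309 to 149014 per library. In IFN-γ against PBS 7 were tested by edgeR. At an adjusted p under 0.05, 2 were higher and 4 lower, beside 20.2% and 19.5% of all genes. With a fold change above 1.5 as well, 2 were higher and 0 lower, beside 9.79% and 8.28%. The 6 dendritic cell markers summed to 5.26 to 10.2 CPM without IFN-γ and 13.7 to 41.6 CPM with it. Of these sums Itgax alone made up 3.72 to 8.21 CPM without IFN-γ and 11.4 to 40.1 CPM with it. Among the 6, Itgax and Zbtb46 had more than 10 counts in every library while Flt3 had 0 or 1.

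Class II molecules carry peptides from endosomes to the cell surface, where CD4+ T cells read them. H2-Aa with H2-Ab1, and H2-Ea with H2-Eb1, encode the α and β chains of the surface molecules. Cd74 encodes the invariant chain, which guards the binding groove during assembly, H2-DMa, H2-DMb1 and H2-DMb2 encode the DM chaperone that loads peptide, and H2-Oa with H2-Ob encodes DO, an inhibitor of DM. Ciita does not bind DNA itself but is recruited to factors that sit on the X and Y boxes of class II promoters. In macrophages IFN-γ switches Ciita on, whereas B cells and dendritic cells use Ciita without it. The gene called H2-Ea-ps is a pseudogene in the C57BL/6 reference and a working gene in BALB/c mice, and the reads of all H2 genes were aligned to the C57BL/6 reference.

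In the GENCODE M21 annotation of GRCm38, 8 of the 10 genes lie together on chromosome 17, from H2-Oa at 34092340 to the end of H2-Ea-ps at 34344645. Ciita lies on chromosome 16 from 10480059 to 10528418, and Cd74 lies apart from both. Some members could share reads with other genes. Of the 100-base windows in H2-DMb1 transcripts 11.3% also occurred in H2-DMb2, and 10.3% of those of H2-DMb2 occurred in H2-DMb1, while the other 8 members shared no such window with another gene. H2-Oa overlaps the antisense gene BC051537, H2-Eb1 the antisense gene Gm20513, Ciita the gene Dexi, and H2-DMa the gene Brd2, all on the opposite strand. The strand setting of the counting is not given in the sources used here. On the same strand H2-DMa overlaps CR974462.3, and Cd74 the microRNA gene Mir5107. The counts of these genes are therefore uncertain to that extent.

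Promoter sequences from RefSeq on GRCm38.p6 were at hand for H2-Aa, H2-Eb1, H2-DMa, H2-DMb1, H2-DMb2 and H2-Oa. The 250 bases before the start of H2-Aa and of H2-Eb1 are shown because both genes went from near 0 to among the highest levels with IFN-γ, and because they differ in the boxes matched. Capitals mark each match to the Y box core ATTGG and to the X box pattern (AG, any 2 bases, AC, any 1 base, GATG), searched on both strands. The H2-Aa stretch is chr17:34287824-34288073 on the minus strand and the H2-Eb1 stretch is chr17:34305617-34305866 on the plus strand.
H2-Aa: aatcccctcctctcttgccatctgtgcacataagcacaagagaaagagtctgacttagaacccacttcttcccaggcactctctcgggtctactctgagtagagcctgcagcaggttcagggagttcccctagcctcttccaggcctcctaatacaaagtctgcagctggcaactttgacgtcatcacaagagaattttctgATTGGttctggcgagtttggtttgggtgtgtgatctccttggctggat
H2-Eb1: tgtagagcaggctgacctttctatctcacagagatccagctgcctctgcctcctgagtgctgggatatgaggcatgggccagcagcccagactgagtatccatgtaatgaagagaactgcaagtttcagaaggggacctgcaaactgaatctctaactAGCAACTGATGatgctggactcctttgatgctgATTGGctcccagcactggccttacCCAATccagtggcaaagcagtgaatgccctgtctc
The Y box core began 48 bases before the start in H2-Aa, which held no match to the X box pattern, and 59 bases before it in H2-Eb1. H2-Eb1 held a further Y box core on the other strand, beginning 35 bases before the start, and an X box, AGCAACTGATG, beginning 92 bases before it. H2-DMb1 held the X box AGTAACTGATG at 95 bases and the Y box core at 61 bases, and H2-Oa held AGTGACAGATG at 141 bases and the Y box core at 43 bases before the start. The promoter of H2-DMb2 held a Y box core at 90 bases but no match to the X box pattern, and of 2 start sites listed for H2-DMa 1 had a Y box core. Among 32851 RefSeq promoter windows of the same length, 33.8% held ATTGG and 0.816% held the X box pattern. These matches describe the letters only.

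IFN-γ alone was compared with PBS to ask which class II genes the cytokine switches on. Without it the cells held almost no Ciita RNA, with 1, 0 and 0 counts in the PBS libraries. With IFN-γ they held 484, 596 and 394 counts, which is 19.8, 24.4 and 18.6 CPM. The groups did not overlap, and the pooled level with IFN-γ was 1411 times that in PBS, with an exact 95% counting interval of 253 to 55783 because PBS held a single count. Such intervals cover counting error only.

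Both chains of the A molecule moved from the same floor. H2-Aa had 5, 4 and 3 counts in PBS and 22807, 17520 and 22092 counts with IFN-γ, and H2-Ab1 had 12, 6 and 6 counts and then 16705, 13114 and 15818. The log2 fold changes were 12.27 (SE 0.235) and 10.84 (SE 0.211). For the E molecule, H2-Eb1 went from 7, 20 and 15 counts to 26397, 20819 and 24724, and H2-Ea-ps from 0, 1 and 2 counts to 6628, 4768 and 6852. The pooled ratio for H2-Ea-ps was 5824 (interval 1993 to 28245), again set by only 3 counts in PBS. These chains thus all lay near 0 in PBS and between 195 and 1166 CPM with IFN-γ.

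Cd74 and H2-DMa behaved otherwise, because both were already transcribed in PBS. Cd74 had 990.2, 1255 and 1159 CPM in PBS and 5499, 5315 and 5885 CPM with IFN-γ, a log2 fold change of 2.31 (SE 0.106). H2-DMa had 5.87, 5.98 and 5.35 CPM and then 46.5, 44.5 and 50.8 CPM, a log2 fold change of 3.06 (SE 0.107). The other DM chains started lower. H2-DMb1 had 5, 0 and 4 counts in PBS against 1585, 1135 and 1419 with IFN-γ, and H2-DMb2 20, 19 and 12 against 885, 664 and 669. H2-Oa had 6, 8 and 13 counts in PBS and 35, 18 and 39 with IFN-γ, the fewest of all members with IFN-γ, and its log2 fold change was 1.72 (SE 0.449).

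By edgeR's quasi-likelihood test, with p-values adjusted by Benjamini-Hochberg over 12242 genes, a gene was called changed at an adjusted p under 0.05 and a fold change above 1.5. All 10 members rose by this rule, beside 9.79% of all genes tested that were called higher. The adjusted p ranged from 1.05e-11 for H2-Aa and H2-Ab1 to 0.00998 for H2-Oa. The median log2 fold change of the members was 9.39, or 9.61 with the genes at 3 or fewer PBS counts set to their pooled ratio, against -0.01 over all genes. In the groups without IFN-γ 6 of the 10 members passed the filter on low counts, so Ciita, H2-Aa, H2-Ea-ps and H2-DMb1 entered this test through their IFN-γ libraries. H2-Oa missed the threshold when replicate 1 was left out (adjusted p = 0.0648).

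**Figure D1:**
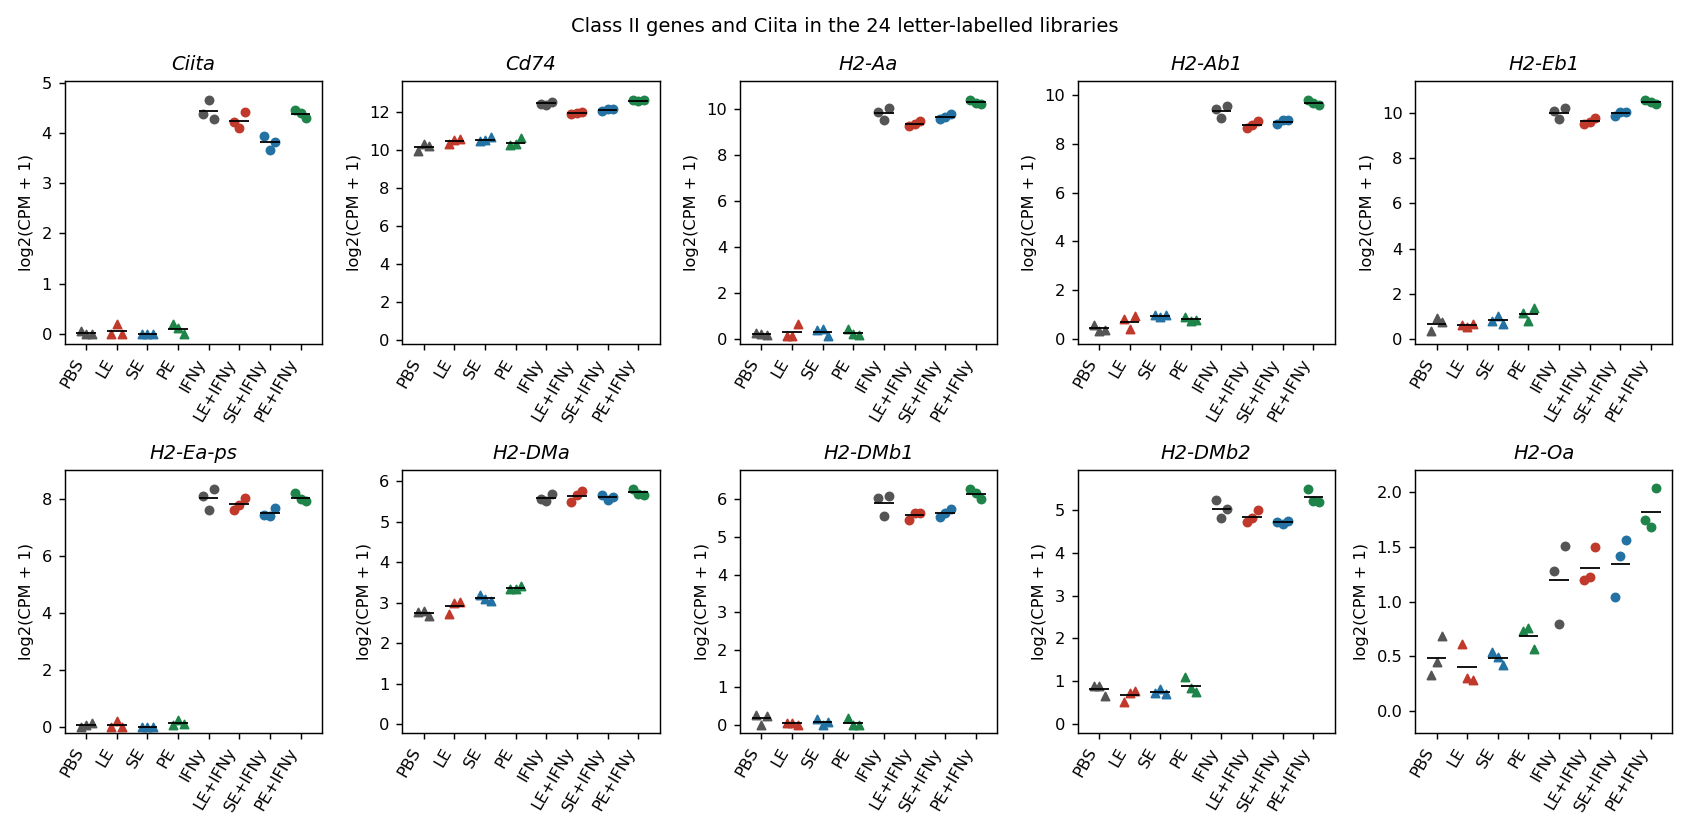
Level of each member in the 24 letter-labelled libraries, as log2(CPM + 1) on the vertical axis, with the 8 groups along the horizontal axis. Points are single libraries (triangles without IFN-γ, circles with it; grey PBS or IFN-γ alone, red LE, blue SE, green PE) and bars are group means; in all 10 panels the 12 libraries with IFN-γ lie above the 12 without it.

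Divided by exon length (the union of M21 exons, in CPM per kilobase), the levels with IFN-γ alone ran from Cd74 at 3315 ± 173 (SD, n = 3) to H2-Oa at 0.950 ± 0.397. H2-Eb1 came after Cd74 at 531 ± 83.8. H2-Ab1 at 255 ± 42.0, H2-Ea-ps at 254 ± 62.3 and H2-Aa at 236 ± 43.7 followed and did not differ beyond their spread. H2-DMb1 stood at 35.4 ± 6.73, H2-DMb2 at 18.1 ± 2.61 and H2-DMa at 13.7 ± 0.946. Ciita, the coactivator, was near the bottom at 2.20 ± 0.320. The order therefore placed the invariant chain above the surface chains, those above the DM chains, and Ciita and DO last.

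Genes that act beside the class II system were followed from lists drawn up with earlier results known. H2-Ob, the partner of H2-Oa, had 0 to 2 counts in the 12 libraries without IFN-γ and 14 to 46 in those with it. It rose in IFN-γ against PBS by the same edgeR test (adjusted p = 0.000559). In the groups without IFN-γ it was too low to be tested, so H2-Ob too entered through its IFN-γ libraries. H2-Eb2 had 0 counts in all 24 libraries. None of the 7 factors that occupy class II promoters was called by edgeR or DESeq2, and 1 of them had an unadjusted p under 0.05. Of 8 genes on the path from the IFN-γ receptor to Ciita, 2 were called higher and 1 lower, beside 9.79% and 8.28% of all genes. Among the 8, Irf1 rose (log2 fold change 2.84) and Ifngr2, a receptor chain, fell by 0.64 on the log2 scale. Socs1, which dampens the same path, rose by 2.37, and Prdm1, a repressor of Ciita, was too low to be tested. None of the 7 proteases and related enzymes of the endosome was called by either tool, with 2 at an unadjusted p under 0.05 by edgeR, while all 11 genes of class I presentation rose, with a median log2 fold change of 1.80.

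Likeness of pattern was measured as the root mean square difference in log2 CPM over the 24 libraries, each gene centred on its own mean, among 13096 genes. The members themselves were left out of this search for neighbours. The 5 genes most like Cd74 were Psmb8 (0.152), H2-T23 (0.191), H2-K1 (0.204), Psmb10 (0.210) and Tap2 (0.211), all of the class I pathway or its gene family. Nearest to Ciita were Fgl2 (0.489), Plbd1 (0.595), Gm4951 (0.628), Tgtp2 (0.728) and Gbp5 (0.758). H2-Aa had no neighbour as close outside the members. Ly6a lay at 0.823, and Serpina3f, Iigp1, Gbp4 and Cxcl9 at 1.31 to 1.47. The members H2-Ea-ps (0.796) and H2-Eb1 (0.822) lay nearer to H2-Aa than Ly6a did. Within the members the nearest pairs were Cd74 with H2-Oa (0.490), Cd74 with H2-DMa (0.501) and H2-Ab1 with H2-Eb1 (0.591).

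The peptides were next compared with PBS in the absence of IFN-γ, to ask whether a peptide alone acts on these genes. Ciita had no counts in any SE library, 0, 3 and 0 in LE and 3, 2 and 0 in PE. H2-Ea-ps likewise had 0 counts in all SE libraries. Neither Ciita nor H2-Ea-ps came near its level with IFN-γ in these groups. H2-Oa did come near, at up to 0.692 CPM with PE alone against at least 0.736 CPM in the libraries with IFN-γ. For Ciita 0 counts allow up to 3 counts over the SE group.

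Of the 6 members tested, SE raised H2-Ab1. Its counts were 24, 15 and 20 against 12, 6 and 6 in PBS, the log2 fold change was 1.46 (SE 0.408) and the adjusted p was 0.0315, beside 0.676% of all genes called higher. DESeq2 gave H2-Ab1 no adjusted p here, so that tool did not judge it. The edgeR call was lost without any 1 of the 3 replicates (adjusted p 0.0869 to 0.212). Over all genes 3, 419 and 17 were called for SE without replicate 1, 2 and 3, against 239 with all replicates. PE raised H2-DMa, which had 9.17, 9.08 and 9.70 CPM against 5.87, 5.98 and 5.35 in PBS. The log2 fold change was 0.79 (SE 0.137) and the adjusted p was 0.00558, beside 0.652% of genes called higher. Without replicate 1 the adjusted p was 0.185 and without replicate 3 it was 0.0565. Over all genes 0, 1021 and 60 were called for PE without replicate 1, 2 and 3, against 389 with all replicates. LE called no member by edgeR or DESeq2, with 2 of 6 at an unadjusted p under 0.05 and 0.0242% of all genes called. Cd74 lay higher than PBS with each peptide, by 0.39, 0.46 and 0.34 on the log2 scale for LE, SE and PE, and none of these passed both thresholds, although SE had an adjusted p of 0.0259 and passed both without replicate 2 (0.59, adjusted p = 0.0411).

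The main question of the design was how a peptide changes the response to IFN-γ, asked by setting each peptide with IFN-γ against IFN-γ alone. Ciita was lowest with SE. It had 14.5, 11.7 and 13.2 CPM in SE+IFNy, below the 19.8, 24.4 and 18.6 CPM of IFNy, without overlap. It was at 62.7% ± 6.62 (SD, n = 3) of the mean for IFN-γ alone. In LE+IFNy it had 467, 438 and 466 counts and in PE+IFNy 464, 489 and 437 counts, and as CPM both overlapped IFNy.

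H2-Aa, H2-Ab1 and H2-Eb1 were lowest with LE and highest with PE. H2-Aa had 601, 651 and 708 CPM in LE+IFNy, 757, 787 and 859 in SE+IFNy and 1317, 1202 and 1187 in PE+IFNy, against 935, 717 and 1042 in IFNy. All LE libraries lay below and all PE libraries above the IFNy range, whereas the SE libraries lay inside it. H2-Ab1 had 405, 441 and 485 CPM with LE, 449.5, 499 and 505 with SE and 889, 825 and 779 with PE, against 685, 536 and 746. H2-Eb1 had 729.9, 766 and 863 CPM with LE, 934, 1031 and 1028 with SE and 1497, 1398 and 1314 with PE, against 1082, 851 and 1166. H2-Ea-ps, like Ciita, had its lowest mean with SE. It stood there at 172, 166 and 204 CPM, and its PE libraries (289, 253 and 239) lay within the IFNy values of 272, 195 and 323, while its LE libraries (194, 218 and 257) overlapped them.

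Cd74 separated all 4 groups. It stood at 3845, 3975 and 4068 CPM in LE+IFNy, 4212, 4471 and 4567 in SE+IFNy and 6229.9, 6006 and 6264 in PE+IFNy, with 5499, 5315 and 5885 in IFNy, and no group overlapped another. H2-DMa lay in all 4 groups between 43.9 and 55.5 CPM. H2-DMb1 had 42.8, 48.9 and 48.6 CPM with LE, 45.1, 49.1 and 52.5 with SE, 77.2, 71.1 and 63.2 with PE and 65.0, 46.4 and 66.9 with IFN-γ alone. H2-DMb2 had its lowest values with SE, at 25.3, 24.5 and 25.7 CPM, against 36.3, 27.2 and 31.6 with IFN-γ alone, 25.4, 26.9 and 31.0 with LE and 44.2, 36.0 and 35.4 with PE. H2-Oa was highest with PE, at 52, 54 and 73 counts against 35, 18 and 39.

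By the test, SE lowered Ciita (log2 fold change -0.65, SE 0.110, adjusted p = 0.000196), the single member called for SE, beside 2.38% of all 12720 genes called lower. Without replicate 2 its log2 fold change was -0.45, under the fold threshold, and H2-Ea-ps was called instead (-0.64, adjusted p = 0.000774). A further 4 members had an adjusted p under 0.05 but under 1.5-fold for SE, namely Cd74, H2-Ab1, H2-Ea-ps and H2-DMb2, all lower, beside 16.6% of all genes that were lower by p alone. LE called no member by edgeR or DESeq2, beside 15.5% of genes called. By p alone 5 members were lower with LE, as were 24.8% of all genes. These were Cd74 (-0.48), H2-Aa (-0.44), H2-Ab1 (-0.55), H2-Eb1 (-0.38) and H2-DMb1 (-0.33). H2-Ab1 passed both thresholds when replicate 2 was left out (-0.67). The myeloid gene Itgax, on the dendritic cell list, was at 33.8 to 40.1 CPM in LE+IFNy, 24.4 to 25.3 in SE+IFNy, 11.4 to 15.7 in PE+IFNy and 13.8 to 19.8 in IFNy. Of 7 macrophage markers tested, Adgre1 (0.93) and Itgam (0.80) were higher with LE and Adgre1 (0.65) with SE. The part of these markers in the differences was not tested.

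PE raised H2-Oa (log2 fold change 0.98, SE 0.293, adjusted p = 0.0416), beside 0.448% of genes called higher. DESeq2 gave H2-Oa no adjusted p here, so that tool did not judge it. The call did not hold with 1 fit of all 8 groups (adjusted p = 0.0760) or without any 1 of the replicates (0.0952 to 0.214). Over all genes 4, 250 and 9 were called for PE without replicate 1, 2 and 3, against 80 with all replicates. H2-Ob was also higher with PE by edgeR, by 1.14 on the log2 scale (SE 0.285, adjusted p = 0.0209), at 31 to 46 counts against 14 to 22. DESeq2 did not call H2-Ob. H2-Aa, H2-Ab1 and H2-Eb1 were higher by p but under 1.5-fold (0.49, 0.37 and 0.47), beside 5.43% of genes higher by p. Without replicate 3, H2-Aa (0.64) and H2-Eb1 (0.61) passed both thresholds. Among class I presentation genes none of 11 was called by edgeR or DESeq2 with any of the 3 peptides. Of all genes edgeR called 15.5%, 7.39% and 0.629% for LE, SE and PE. Of the 11, 4, 4 and 6 had an unadjusted p under 0.05 by edgeR for LE, SE and PE. By adjusted p alone 4, 3 and 2 of them changed, beside 50.5%, 33.4% and 10% of all genes. Irf1 was lower with SE, by -0.64 on the log2 scale (adjusted p = 3.21e-05), and Socs1 with LE, by -0.73 (adjusted p = 0.000748), whereas Jak1 was higher with LE, by 0.78 (adjusted p = 6.08e-07). Of the 7 class II promoter factors, Rfxap, a subunit of the complex on the X box, was lower with LE, by -0.60 (SE 0.101, adjusted p = 8.62e-05), and its LE interaction with IFN-γ was -0.64 (adjusted p = 0.00172). None of the 7 was called for SE or PE by edgeR or DESeq2, with 1 at an unadjusted p under 0.05 by edgeR for each. Of the 7 endosomal genes Lgmn, a protease, was higher with LE, by 0.70 (adjusted p = 1.54e-08).

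**Figure D2:**
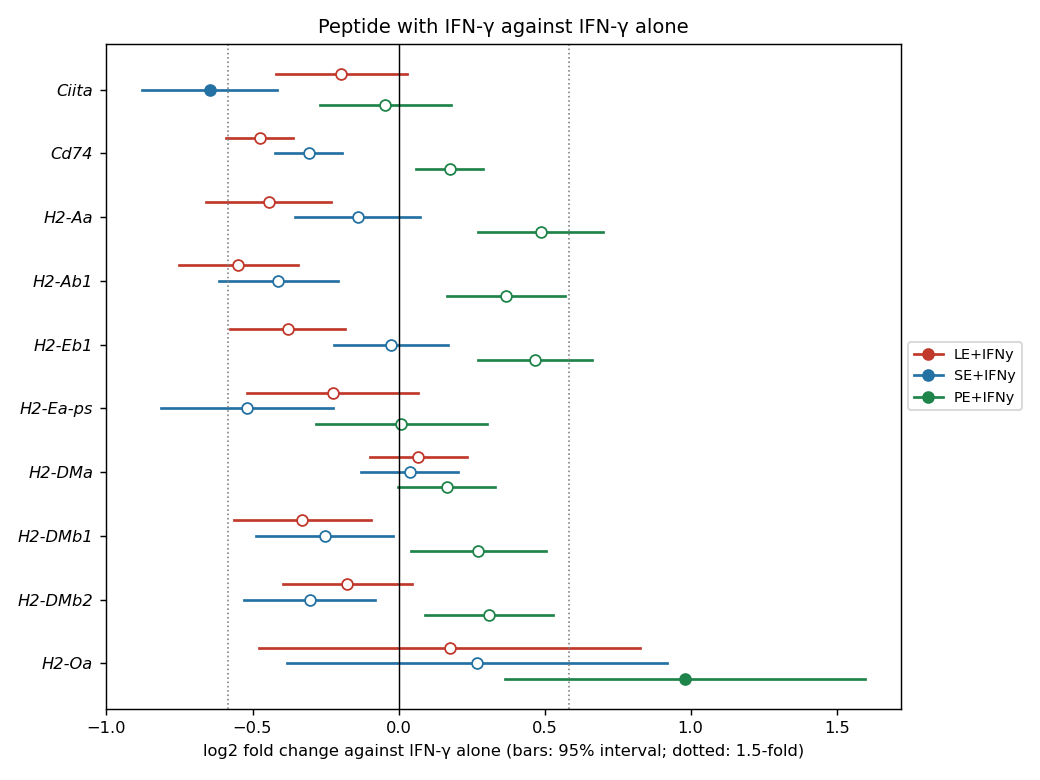
Log2 fold change of each member (vertical axis) for a peptide with IFN-γ against IFN-γ alone, with 95% intervals as bars; red LE, blue SE, green PE, filled points called and open points not, dotted lines at 1.5-fold. The filled points are Ciita with SE at -0.65 and H2-Oa with PE at 0.98, and the LE and PE points of H2-Aa, H2-Ab1 and H2-Eb1 lie on opposite sides of 0.

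The peptides were then set against each other at the same dose and time, all with IFN-γ, in 3 pairs of groups. These pairs use shared groups, and the p-values are those of the fit across all genes, adjusted within each pair and not over the 3 pairs. LE against PE gave the most calls. Of the members 6 were lower with LE, beside 8.94% of all genes, and 7 were lower without overlap between the groups, beside 32.9% of all genes (66.5% in either direction). H2-Aa was at -0.93 (SE 0.102, adjusted p = 5.70e-07), H2-Ab1 at -0.92 (SE 0.0975, adjusted p = 3.92e-07), H2-Eb1 at -0.85 (SE 0.0939, adjusted p = 6.26e-07) and Cd74 at -0.65 (SE 0.0551, adjusted p = 3.02e-08) on the log2 scale. The calls of H2-DMb1 (-0.60) and H2-Oa (-0.80) were lost without replicate 1, and that of H2-Oa also without replicate 3. H2-DMb2 was lower by p alone (-0.49, adjusted p = 0.000637) and passed both thresholds without replicate 3 (-0.62).

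SE against PE gave fewer calls but more members without overlap. It had 4 members lower with SE, beside 2.34% of all genes. They were H2-Ab1 (-0.78, SE 0.0972, adjusted p = 8.95e-06), H2-Aa (-0.63, SE 0.102, adjusted p = 0.000131), H2-DMb2 (-0.61, SE 0.105, adjusted p = 0.000215) and Ciita (-0.60, SE 0.111, adjusted p = 0.000405). Several members lay close to the fold threshold. Ciita dropped below it without replicate 2 (-0.52), and H2-Aa (-0.54) and H2-DMb2 (-0.51) without replicate 1, while H2-DMb1 (-0.64) and H2-Ea-ps (-0.67) passed it without replicate 3 and H2-Oa (-0.86) without replicate 2. Every member was at a lower mean level with SE than with PE, and the 3 libraries of each did not overlap for any of the 10, beside 24.8% of all genes that did not overlap and were lower with SE (47.6% in either direction). By adjusted p alone 8 members were lower, beside 17.1% of all genes. The exceptions were H2-Oa (-0.71, adjusted p = 0.0607) and H2-DMa (-0.13, interval -0.29 to 0.04, adjusted p = 0.223). For H2-DMa the highest SE library was at 49.5 CPM and the lowest PE library at 49.7 CPM.

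LE against SE gave no call by edgeR or DESeq2, beside 4.93% of all genes (35.6% by adjusted p alone), although 4 members had an unadjusted p under 0.05. By adjusted p alone Ciita was higher with LE (0.45, SE 0.111, adjusted p = 0.00471), and Cd74 (-0.17, adjusted p = 0.0244), H2-Aa (-0.30, adjusted p = 0.0271) and H2-Eb1 (-0.35, adjusted p = 0.00740) were lower. H2-Aa and H2-Eb1 thus stood opposite to Ciita between these peptides, while H2-Ea-ps had the same sign as Ciita (0.29, adjusted p = 0.112). For H2-DMa the 95% interval of the difference ran from -0.13 to 0.19 on the log2 scale, for H2-Ab1 from -0.34 to 0.07, and for H2-Oa from -0.72 to 0.54.

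**Figure D3:**
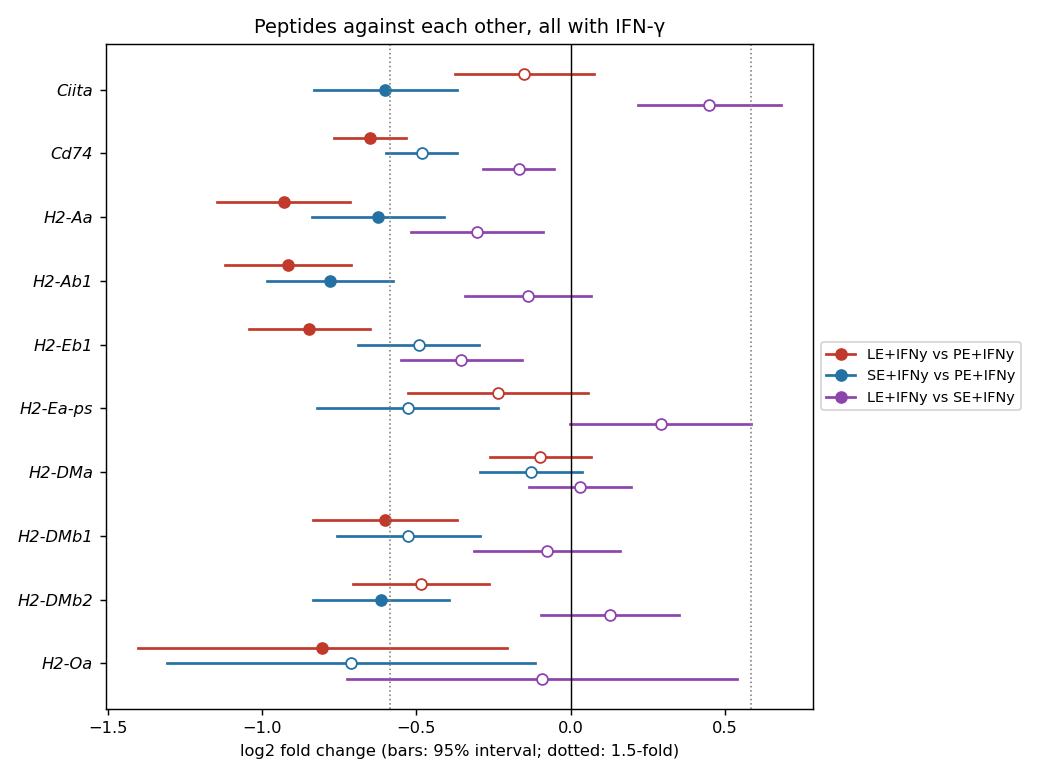
Log2 fold change of each member between peptides, all with IFN-γ, with 95% intervals as bars; red LE against PE, blue SE against PE, purple LE against SE, filled points called and open points not, dotted lines at 1.5-fold. For H2-Aa, H2-Ab1 and H2-Eb1 the red points lie between -0.93 and -0.85, while for Ciita the red point is at -0.15 and the blue one at -0.60.

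Ratios of read counts between members were taken within each library, which removes library scaling. The 5 ratios were chosen after the values had been seen, so their p-values are no independent evidence of a difference. The adjustment does not cover other ratios that could have been chosen. Each was tested over the 4 groups with IFN-γ by an exact permutation test of the group means over 15400 splits (smallest p 6.49e-05), adjusted over the 5. H2-Aa per H2-Ab1 was 1.37, 1.34 and 1.40 with IFN-γ alone, 1.48, 1.48 and 1.46 with LE, 1.68, 1.58 and 1.70 with SE and 1.48, 1.46 and 1.52 with PE. The SE libraries lay above all others and the IFNy libraries below (exact permutation p = 0.000455, adjusted p = 0.00227). H2-Ea-ps per H2-Eb1 was 0.251, 0.229 and 0.277 with IFN-γ alone and 0.266, 0.284 and 0.298 with LE, but 0.184, 0.161 and 0.199 with SE and 0.193, 0.181 and 0.182 with PE (exact permutation p = 0.00149, adjusted p = 0.00373). Those of SE and PE did not overlap those of IFN-γ alone and LE.

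H2-DMa per H2-DMb1 and H2-DMb2 together was 0.657 ± 0.0126 (SD, n = 3) with LE, 0.644 ± 0.0506 with SE, 0.479 ± 0.0237 with PE and 0.527 ± 0.0729 with IFN-γ alone (exact permutation p = 0.00669, adjusted p = 0.0111). The LE and SE libraries all lay above the PE and IFNy libraries. H2-Ab1 per Ciita was 24.6 ± 2.23 with LE, 37.3 ± 5.84 with SE, 41.7 ± 0.644 with PE and 32.2 ± 9.29 with IFN-γ alone, and Cd74 per H2-Ab1 was 8.96 ± 0.555, 9.13 ± 0.215, 7.44 ± 0.534 and 8.61 ± 1.13 in the same order. Neither passed the exact permutation test after adjustment (adjusted p = 0.0611 for both). With 1 replicate number left out the smallest p rises to 1 of 105 splits, or 0.00952, and each of the first 3 ratios missed the threshold in 2 of those 3 subsets.

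**Figure D4:**
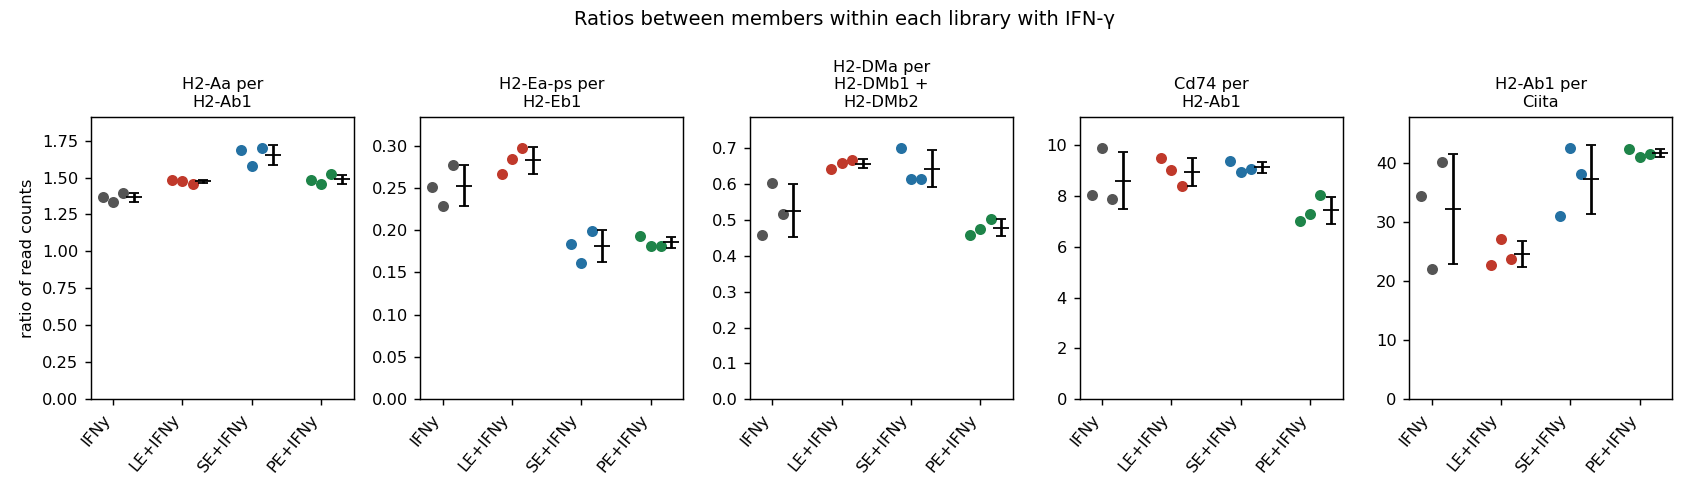
Ratio of read counts between members within each of the 12 letter-labelled libraries with IFN-γ (vertical axes from 0), by group along the horizontal axes. Points are libraries and the bars beside them are mean ± SD; H2-Ea-ps per H2-Eb1 lies at 0.161 to 0.199 in the SE and PE libraries and at 0.229 to 0.298 in the others.

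In the second model of the study each peptide with IFN-γ was compared with the same peptide alone. All 10 members rose for each peptide, beside 19.1%, 15.1% and 12.1% of all genes called higher for LE, SE and PE, and Ciita, H2-Aa, H2-Ea-ps and H2-DMb1 again entered through their IFN-γ libraries. On the log2 scale Cd74 rose by 1.44 ± 0.0970 (SE) with LE, by 1.53 ± 0.0972 with SE and by 2.14 ± 0.0991 with PE. H2-DMa rose by 2.88, 2.59 and 2.43, in the reverse order. Against 0 counts in SE alone, Ciita was at least 273-fold and H2-Ea-ps at least 3766-fold higher in SE+IFNy, set against a floor of 3 counts over the group. The median over the members was 8.88, 9.18 and 8.92 for LE, SE and PE, and 8.97, 8.52 and 8.92 with members at 3 or fewer counts at their pooled ratio or bound.

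Whether IFN-γ acted differently in the presence of a peptide was tested as an interaction, the effect of the peptide with IFN-γ minus its effect without. Cd74 had an interaction of -0.87 (SE 0.145, adjusted p = 5.61e-05) for LE and -0.78 (SE 0.145, adjusted p = 0.000504) for SE. H2-Ab1 had one of -1.46 (SE 0.463, adjusted p = 0.0150) for LE and -1.88 (SE 0.425, adjusted p = 0.00286) for SE. These were the 2 members called for each peptide, beside 7.58% and 2.89% of all genes called lower. The H2-Ab1 values rest on 6 to 24 counts per library in the groups without IFN-γ, and for LE the call was lost without replicate 1 (adjusted p = 0.0803) or replicate 3 (0.182). For PE no member was called by edgeR or DESeq2, 1 of 10 had an unadjusted p under 0.05, and none of 13096 genes (0%) was called although 1073 had an unadjusted p under 0.05. Without the filter on low counts H2-DMa was called for PE (-0.63, adjusted p = 0.0331).

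The HLA-labelled libraries were read separately because the class II genes there did not follow the labels. In the 12 libraries labelled PBS, SE, IFNy or SE+IFNy, Ciita had 0 to 2 counts and H2-Aa 0 to 18. In the 12 labelled LE, PE, LE+IFNy or PE+IFNy, Ciita had 370 to 1075 counts and H2-Aa 10608 to 24778. Cd74 split the same way, at 562 to 1012 CPM against 3142 to 4206 CPM. Thus the 3 libraries labelled IFNy had H2-Aa at 0.0310 to 0.530 CPM, whereas in the letter-labelled set IFNy gave 717 to 1042 CPM. In the deposited table the columns of the HLA-labelled libraries also stand beside letter-labelled columns of other groups. Those labelled LE+IFNy follow the letter-labelled PE+IFNy columns and those labelled PE+IFNy follow the IFNy columns, and in all 8 blocks of columns the HLA-labelled libraries had the Ciita and H2-Aa levels, low or high, of the letter-labelled group they stand beside. Column order was not used to place a library in a group, so what each HLA-labelled library received is in doubt. With the labels taken as given, the HLA-labelled set alone called 0 of 4 members tested for IFNy against PBS, beside 0 of 13690 genes. It called 10 members for LE against PBS, beside 4065 of 14230 genes.

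Labels LE+IFNy and PE+IFNy had a class II response in both sets, and this pair was compared again, a test chosen after the values had been seen. Because of the doubt about the labels it may not be LE against PE at all, and by the column order it would be PE+IFNy against IFNy. In 1 fit of the 4 groups, 1 of 10 members was called for LE against PE in the HLA-labelled libraries, beside 0.424% of 14139 genes. That member was Ciita, lower with LE (-0.66, SE 0.102, adjusted p = 0.00185), where the letter-labelled value was -0.11 (adjusted p = 0.421). H2-Aa stood at 0.28 (adjusted p = 0.117) against -0.89 in the letter-labelled set, H2-Ab1 at 0.06 against -0.88 and H2-Eb1 at 0.15 against -0.81. The difference between the sets was itself called for 5 members, H2-Aa, H2-Ab1, H2-Eb1, H2-DMb1 and H2-Oa, beside 18.9% of all genes. The sets also differed in H2-Aa per H2-Ab1, which was 0.714 to 0.936 in the HLA-labelled libraries with a class II response and 1.34 to 1.70 in the letter-labelled ones. H2-Ea-ps per H2-Eb1 was 0.162 to 0.188 in the HLA-labelled LE+IFNy libraries and 0.180 to 0.222 in those labelled PE+IFNy, where the letter-labelled set had LE above PE. These values therefore do not show whether the differences between LE and PE in the letter-labelled libraries would recur.

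**Figure D5:**
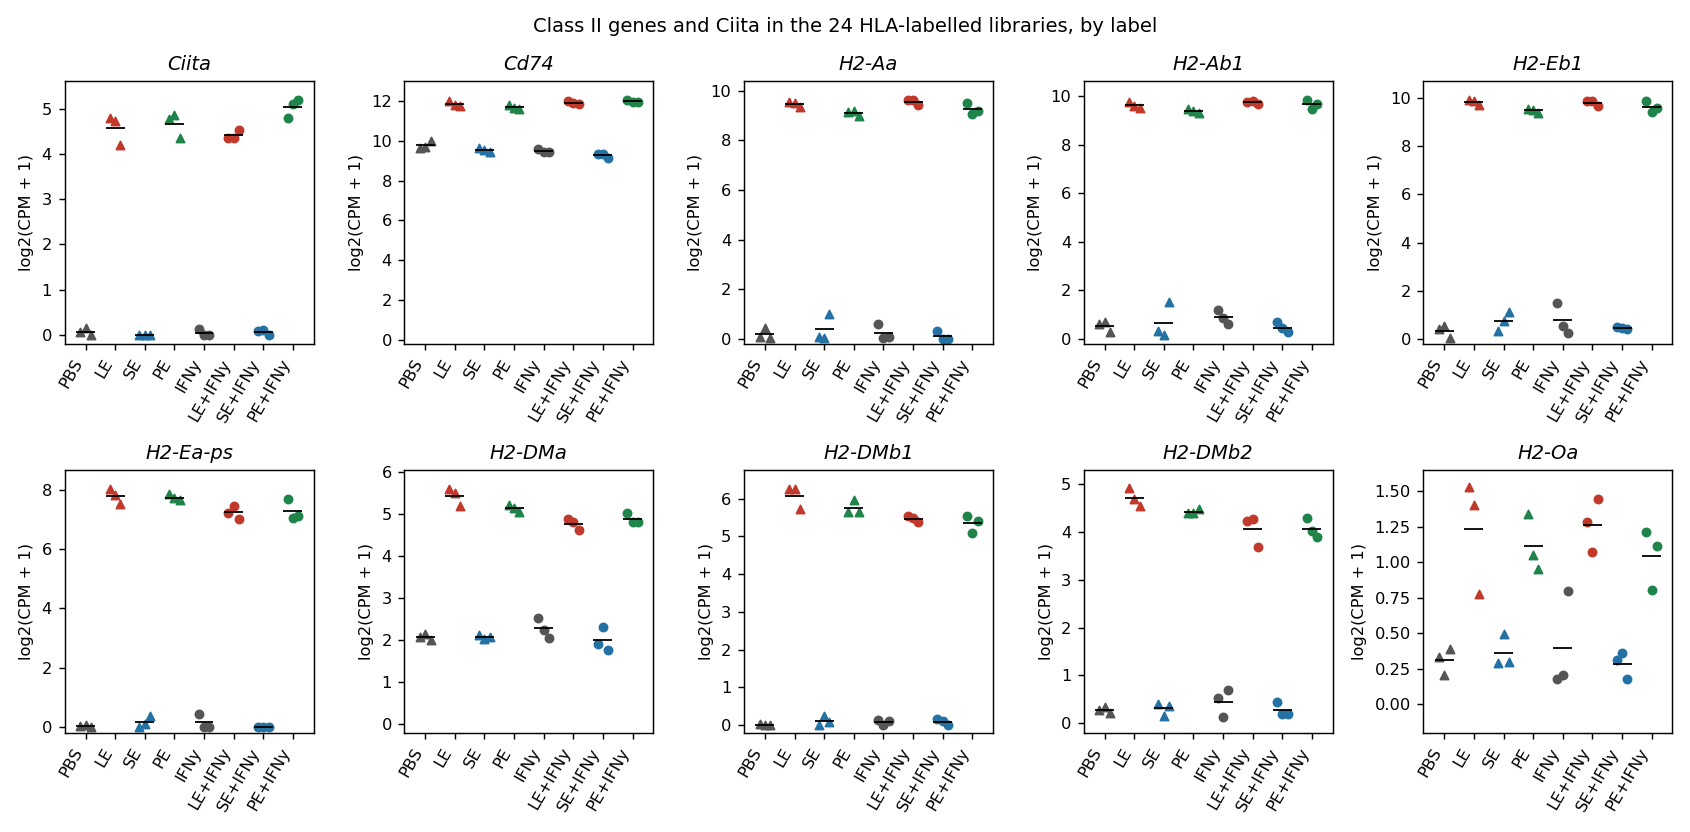
Level of each member in the 24 HLA-labelled libraries, as log2(CPM + 1), by labelled group; symbols, colours and bars as in the plot of the letter-labelled libraries. Libraries labelled LE and PE without IFN-γ lie with those labelled LE+IFNy and PE+IFNy, and libraries labelled IFNy and SE+IFNy lie with PBS.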

How the data were processed

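RAW264.7 RNA from Trizol was made into Illumina TruSeq libraries and read as 100-base single ends. The authors deposited raw read counts per gene for 49568 genes in 48 libraries, made with featureCounts from uniquely aligned reads on GRCm38.p5 with GENCODE genes. Per the labels they used DESeq2 1.16.1 in R 3.4.1, and the aligner is not given in the sources used here.

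Groups came from the labels. CPM was counts over the library total. The main test was edgeR 4.0.16 (TMM scaling, filterByExpr, quasi-likelihood F test) in R 4.3.3, with Benjamini-Hochberg adjustment over all genes tested. A gene was called at an adjusted p under 0.05 and a fold above 1.5. Intervals are 95%. The script was tested on simulated data. All 10 members are named, and other genes come from fixed lists. Members and lists were chosen with earlier results of these data known. Alternatives were DESeq2 1.42.0, other scaling, no filter, 1 fit of 8 groups, a replicate block, leaving out replicates and using the HLA-labelled libraries. Positions and exon lengths come from GENCODE M21 and promoters from RefSeq.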

Additional observations from a re-analysis of the deposited data

Results flagged for a closer look

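Some values stood out because an effect differed between groups by a test of the difference itself. The effect of a peptide on Cd74 was lower with IFN-γ than without by -0.87 for LE and -0.78 for SE on the log2 scale. For H2-Ab1 the same difference was -1.46 for LE and -1.88 for SE. For LE+IFNy against PE+IFNy, the HLA-labelled libraries minus the letter-labelled ones gave 1.17 for H2-Aa, 0.93 for H2-Ab1, 0.96 for H2-Eb1, 0.67 for H2-DMb1 and 1.18 for H2-Oa, a comparison chosen after the data were seen. The labels of the HLA-labelled libraries are in doubt, and by the order of the table's columns this pair would be PE+IFNy against IFNy there, so the difference cannot be read as a change in the effect of LE against PE.

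Signal also appeared in libraries left out of the main comparisons. The lowest Ciita level among the HLA-labelled libraries was 17.3 CPM for LE and 19.4 CPM for PE, and the lowest H2-Aa level was 649.9 CPM for LE and 511 CPM for PE. The HLA-labelled PBS libraries had at most 2 Ciita counts and 7 H2-Aa counts.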

How the results depend on the processing

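Of 1164 member values recomputed in the letter-labelled libraries, 1103 kept their direction and their side of the thresholds, 19 lost a call, 14 gained one and 28 changed sign. The sign changes all came from leaving out a replicate and from values that were not called. Counts of members called that moved by over 1.5 times were as follows, and the cause was not tested. DESeq2 called 0 members for SE against PBS (235 of 24420 genes) and 0 for PE+IFNy against IFNy (58 of 24308). In the latter 1 fit of 8 groups also called 0 (24 of 13096). H2-Ab1 and H2-Oa, which edgeR called in these comparisons, had no adjusted p from DESeq2. Without the filter on low counts 1 member was called for the PE interaction, beside 61 of 27039 genes. Median-of-ratios size factors moved none of these counts, and scaling by total counts in place of TMM shifted no comparison by over 0.1 on the log2 scale. CPM without division by length changed the rank of 5 members with IFN-γ alone.

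The replicate block called 2 members for PE against PBS, beside 514 of 12420 genes, and moved no other count of members by over 1.5 times. Numbers were not taken to pair libraries, since all 3 correlations of deviations from the group means were over 0.1 in 2 of 28 pairs of groups (median r 0.0489 over 84 same-numbered pairs). For H2-Oa in SE+IFNy against PE+IFNy the block gave -0.72 (adjusted p = 0.0256).

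Leaving out 1 replicate number left 2 libraries a group. Members called then ranged from 0 to 1 for SE against PBS, 0 to 2 for PE against PBS, 0 to 1 for LE+IFNy against IFNy, 0 to 2 for PE+IFNy against IFNy, 4 to 6 for LE+IFNy against PE+IFNy, 2 to 6 for SE+IFNy against PE+IFNy and 1 to 2 for the LE interaction. Without replicate 1, 2 and 3, all genes called were, in the same order of comparisons, 3, 419 and 17, then 0, 1021 and 60, and then 2052, 1837 and 1719. The next were 4, 250 and 9, then 2583, 3028 and 2138, then 727, 1244 and 706. For the LE interaction they were 2088, 2336 and 1997. Between 12391 and 13175 genes were tested each time. Adjusted exact permutation p ranged from 0.0476 to 0.0952 for H2-Aa per H2-Ab1, 0.0476 to 0.0952 for H2-Ea-ps per H2-Eb1 and 0.0476 to 0.167 for H2-DMa per H2-DMb1 and H2-DMb2. Values that changed sign, as log2 ranges, were these. Against IFNy, Ciita with PE ran from -0.12 to 0.073, H2-DMa with SE from -0.0086 to 0.10, H2-Ea-ps with PE from -0.15 to 0.25, H2-Eb1 with SE from -0.17 to 0.067, H2-Oa with LE from -0.057 to 0.33 and H2-Oa with SE from -0.078 to 0.54. Against PBS, H2-DMb2 with SE ran from -0.22 to 0.020, H2-Eb1 with LE from -0.56 to 0.29, H2-Oa with LE from -1.04 to 0.34 and H2-Oa with SE from -0.31 to 0.55. H2-DMa ran from -0.19 to 0.027 for LE+IFNy against PE+IFNy and from -0.032 to 0.14 for LE+IFNy against SE+IFNy, where H2-Oa ran from -0.21 to 0.022. LE interactions ran from -4.06 to 2.28 for Ciita, -1.45 to 0.67 for H2-Aa, -1.61 to 2.73 for H2-Ea-ps, -0.79 to 0.26 for H2-Eb1 and -0.050 to 1.36 for H2-Oa. SE interactions ran from -0.76 to 1.83 for Ciita and -0.19 to 0.84 for H2-Oa, and PE interactions from -0.31 to 0.47 for H2-Aa, -0.24 to 0.19 for H2-DMb2 and -0.10 to 0.70 for H2-Oa. Counts near 0 without IFN-γ limit these interactions.

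With both label series pooled, 0 members were called in each comparison, beside at most 271 of 14339 genes (PE+IFNy against PE). For IFNy against PBS 5 members were tested there, and 1 of 12917 genes was called. With the series as a block the count was 3 of 5 tested for IFNy against PBS (40 of 12917 genes). It was 10 for LE and 10 for PE against PBS (1123 and 932 of 13794 genes). It was 2 each for LE+IFNy against IFNy, LE+IFNy against SE+IFNy and SE+IFNy against PE+IFNy (1048, 502 and 439 of 13961 genes). In the others it was 0, beside at most 882 of 14339 genes (PE+IFNy against PE). The HLA-labelled libraries alone gave 10 for LE and for PE against PBS (4065 and 3627 of 14230 genes). They gave 10 for LE+IFNy and PE+IFNy against IFNy, for LE+IFNy against SE+IFNy and for SE+IFNy against PE+IFNy (1929, 1890, 2236 and 2051 of 14110 genes). The count was 4 for LE+IFNy against LE (2593 of 14527), 2 for the LE interaction (2495 of 14748), 1 for LE+IFNy against PE+IFNy (19 of 14110) and 1 for the PE interaction (2145 of 14748). In the others it was 0, beside 2140 of 14527 genes for PE+IFNy against PE and at most 21 elsewhere. Here many labels go against the class II levels.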
